A study of Sus scrofa with 6 samples.

Results

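GFAP, APOE, ALDOC, NDRG2 and CLU are genes that astrocytes of the mammalian brain express strongly, and their signals were followed in the developing pig cerebral cortex between embryonic day 80 (E80) and embryonic day 60 (E60). All probe sets of the Affymetrix Pig Genome Array that carry 1 of these 5 symbols and no other in the platform annotation were taken, which gave 9 probe sets of 23999. GFAP has 4 of them, APOE 2, and ALDOC, NDRG2 and CLU 1 each. The genes were chosen by their higher signals at E80 on these same arrays, so their E80 and E60 values are a description without a test. Of all probe sets, 10069 carry exactly 1 symbol (6765 different symbols), 198 carry several and 13732 carry none.

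Total RNA was extracted from the cerebral cortex of 3 pig embryos at E80, when the first folds of the cortex have appeared, and of 3 embryos at E60, when its surface is still smooth. Each embryo was read on 1 array of 1 colour, and the arrays are called E80 arrays 1 to 3 and E60 arrays 1 to 3. No genotype, treatment, breed or sex is labelled, and the embryos are described as litter mates without the litter of each array, so that litter and day cannot be told apart. The values are MAS5 signals, in which the short matching and mismatching probes of a probe set are summarised as 1 number per array.

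Astrocytes form late in cortical development, after most neurons, from the radial glia that also guide migrating neurons. The switch is driven by cytokine signalling through JAK and STAT3, by bone morphogenetic proteins (BMPs) and Notch, and by the loss of DNA methylation and other repression from astrocyte genes such as GFAP. GFAP is the intermediate filament of mature astrocytes, APOE the main lipid carrier that astrocytes secrete, ALDOC the brain form of the glycolytic enzyme aldolase, NDRG2 a cytosolic protein of the NDRG family that is abundant in astrocytes, and CLU (clusterin or apolipoprotein J) a secreted chaperone.

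The 6 arrays were close in overall level, with median signals of 55.6 to 59.5 at E80 and 60.9 to 64.8 at E60, and the median log2 difference of E80 minus E60 over all probe sets was -0.05. In limma, at a Benjamini-Hochberg adjusted p under 0.05 over all 23999, 224 probe sets (0.933%) had risen at E80 and 243 (1.01%) had fallen. At an unadjusted p under 0.05 there were 4308 of the 23999, in either direction. Counts at that level in the lists below have to be read beside this one. The adjusted calls depended on single arrays. Without E80 array 1, E60 array 1 or E60 array 2 only 1 probe set was called, and without E80 array 3 there were 200. Of the 19 genes on the lists of related genes and cell type markers that were called with all 6 arrays, 0 were called when any one of E80 array 1, E60 array 1 or E60 array 2 was left out. E80 array 3 stands apart by its cell type markers. The choroid plexus protein transthyretin (TTR) had signals of 15.1, 6.25 and 4475 on E80 arrays 1, 2 and 3, against 1.47 to 3.70 at E60. The summed signal of 7 choroid plexus genes was 421, 772 and 6143 on the 3 E80 arrays, against 614 to 626 at E60, and that of 8 microglia genes was 274, 285 and 768, against 191 to 297. Values of the members without E80 array 3 are therefore given beside those with it.

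Of the 9 probe sets, 6 were higher on each E80 array than on any E60 array, at least 1 for each of the 5 genes. Over all probe sets 9.25% had this order, but the members were chosen for it and nothing is read from the count. The 6 are also the brighter ones, whose mean log2 signal exceeded the median probe set. The other 3, a pair for GFAP and 1 for APOE, are dim and overlapped between the days. In bulk cortex, more astrocytes, more RNA of a gene per astrocyte, and RNA of the gene from other cell types cannot be told apart.

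**Figure D1:**
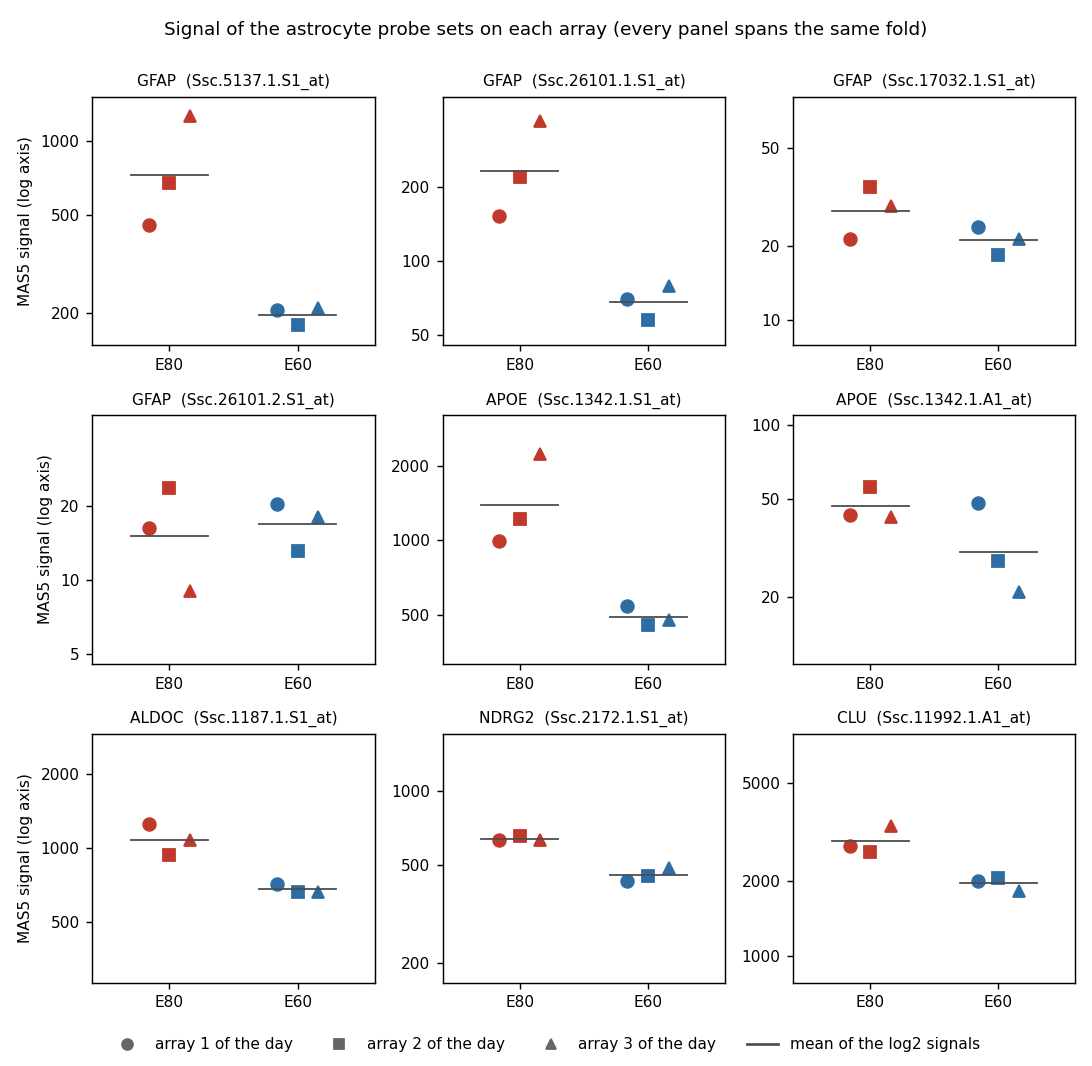
MAS5 signal (log axis) of each of the 9 probe sets on the 3 E80 arrays (red, left) and the 3 E60 arrays (blue, right), with the mean of the log2 signals of each day as a line; the vertical axis of every panel spans the same fold. The E80 points of the brighter GFAP and APOE probe sets lie far apart, those of NDRG2 almost coincide, and the days overlap for the 3 dim probe sets.

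GFAP had the largest differences and the largest spread among the E80 embryos. Its brightest probe set, Ssc.5137.1.S1_at, read 456, 678 and 1258 on E80 arrays 1, 2 and 3, against 205, 179 and 210 on the E60 arrays. The lowest E80 signal was 2.17 times the highest E60 signal. The means were 797 ± 415 at E80 and 198 ± 16.8 at E60 (SD, n = 3 each), a log2 difference of 1.89 (standard error 0.31) or 3.70-fold. Only 133 probe sets had a larger difference. The E80 embryos were 2.31, 3.43 and 6.38 times the E60 mean. The 3 E80 signals spanned 2.76-fold and the 3 E60 signals 1.17-fold. Without E80 array 3 the log2 difference was 1.49.

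The second bright GFAP probe set, Ssc.26101.1.S1_at, ordered the embryos of E80 the same way. It read 152, 218 and 368 on the E80 arrays, against 70.0, 57.2 and 78.8 on the E60 arrays. This was a log2 difference of 1.76 (standard error 0.30), or 3.38-fold, and 1.42 without E80 array 3. The E80 embryos were 2.23, 3.21 and 5.40 times the E60 mean. Deviations of both probe sets from the mean of their day had a Pearson correlation of 0.98 over the 6 arrays, so the unequal GFAP signals at E80 were seen by separate probe sets.

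The remaining GFAP probe sets did not show this pattern. Ssc.17032.1.S1_at read 21.3, 34.8 and 29.1 on the E80 arrays and 23.9, 18.5 and 21.4 on the E60 arrays, a log2 difference of 0.40 (standard error 0.28), and 0.36 without E80 array 3. Ssc.26101.2.S1_at read 16.3, 23.7 and 9.0 on the E80 arrays and 20.4, 13.1 and 18.1 on the E60 arrays, a log2 difference of -0.16 (standard error 0.42), and its lowest signal came from E80 array 3, where the bright ones were highest. It was the sole member whose difference changed sign without E80 array 3, to 0.22. They are brighter than 33.4% and 26.7% of all probe sets, whereas the bright pair exceeds 87.3% and 65.9%.

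On its bright probe set, APOE ordered the E80 embryos as the bright GFAP probe sets did, but not the E60 embryos. Its bright probe set, Ssc.1342.1.S1_at, read 993, 1224 and 2234 on E80 arrays 1, 2 and 3, against 542, 455 and 475 on the E60 arrays, with the lowest E80 signal 1.83 times the highest E60 signal. The means were 1484 ± 660 at E80 and 491 ± 45.7 at E60 (SD, n = 3 each), a log2 difference of 1.51 (standard error 0.26) or 2.85-fold, and 1.17 without E80 array 3. The E80 embryos were 2.03, 2.50 and 4.57 times the E60 mean, in the same order as for GFAP. The dim APOE probe set, Ssc.1342.1.A1_at, read 43.3, 56.4 and 42.4 at E80 and 48.5, 28.0 and 20.9 at E60. E60 array 1 exceeded E80 arrays 1 and 3 there, and the log2 difference was 0.62 (standard error 0.33), and 0.69 without E80 array 3.

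CLU differed less between the days and was also highest on E80 array 3. Its probe set, Ssc.11992.1.A1_at, is brighter than 99.3% of all probe sets and read 2797, 2633 and 3369 on the E80 arrays, against 2014, 2071 and 1834 on the E60 arrays. The means were 2933 ± 386 at E80 and 1973 ± 124 at E60 (SD, n = 3 each), a log2 difference of 0.57 (standard error 0.11) or 1.48-fold. Without E80 array 3 it was 0.46. CLU did not rank E80 arrays 1 and 2 as GFAP and APOE did, since its signal was lower on array 2 than on array 1.

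ALDOC and NDRG2 were higher on every E80 array without the excess on array 3. ALDOC (Ssc.1187.1.S1_at) read 1245, 930 and 1071 on the E80 arrays, against 710, 662 and 660 on the E60 arrays, and was thus highest on E80 array 1, where GFAP and APOE were at their E80 minimum. Its means were 1082 ± 157 at E80 and 677 ± 28.1 at E60 (SD, n = 3 each), a log2 difference of 0.67 (standard error 0.12) or 1.59-fold. NDRG2 (Ssc.2172.1.S1_at) read 633, 656 and 630 on the E80 arrays, against 432, 450 and 485 on the E60 arrays. The 3 E80 signals of NDRG2 spanned 1.04-fold, the narrowest range of the 9 probe sets. Its means were 640 ± 14.3 at E80 and 456 ± 27.1 at E60 (SD, n = 3 each), a log2 difference of 0.49 (standard error 0.09) or 1.40-fold. Without E80 array 3 the differences were 0.67 for ALDOC and 0.50 for NDRG2.

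The 5 genes thus fell into different patterns of spread at E80. Among all probe sets with a mean above the median signal, the median SD of the log2 signals was 0.16 at E80 and 0.15 at E60. The SD at E80 was 0.74 and 0.64 for the bright GFAP probe sets and 0.61 for APOE, larger than for 98.6%, 97.6% and 97.3% of these brighter probe sets. ALDOC (0.21) and CLU (0.19) lay nearer the middle, above 66.1% and 59.3% of them, and NDRG2 (0.03) lay above 3.64%. At E60 the SD was 0.13 for the brightest GFAP probe set and 0.13 for APOE. The second GFAP probe set had an E60 SD of 0.23, larger than for 73.0% of the brighter probe sets.

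**Figure D2:**
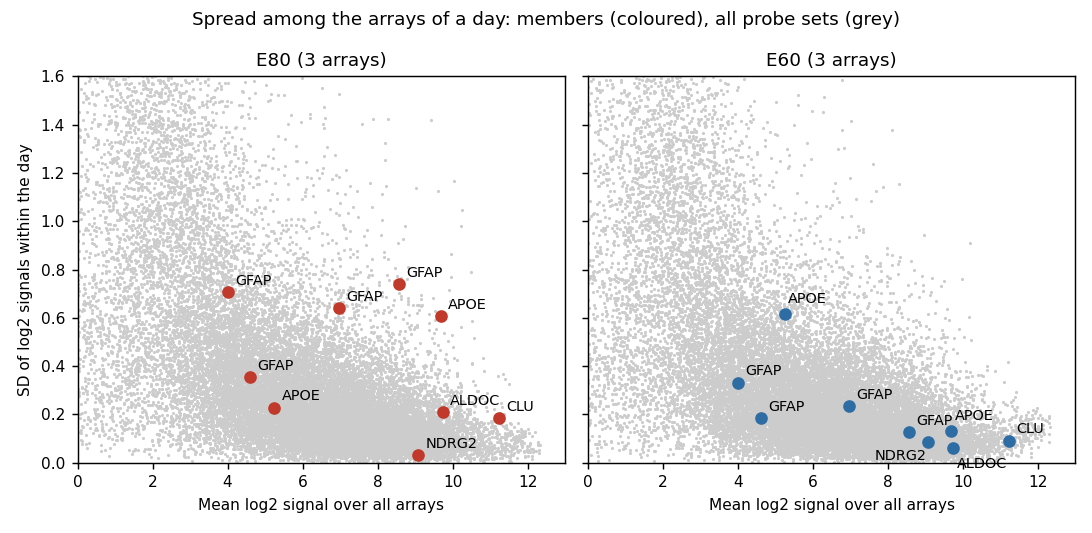
SD of the log2 signals within a day (vertical axis) against the mean log2 signal over all 6 arrays (horizontal axis), at E80 (left) and at E60 (right), for the 9 members (coloured and named) and all probe sets (grey; some dimmer probe sets and larger SDs lie beyond the axes). At E80 the bright GFAP and APOE probe sets stand above most probe sets of like signal while NDRG2 is among the lowest, and at E60 all of the bright members lie within the grey cloud.

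Correlations of the deviations from the day means placed CLU nearer to GFAP and APOE than the spread did. Over the 6 arrays, which share the scaling and the chip, Pearson's r of these deviations was 0.97 between the brightest GFAP probe set and APOE, and 0.78 between APOE and CLU. It was 0.65 between GFAP and CLU, -0.37 between GFAP and ALDOC, and -0.05 between GFAP and NDRG2. The value was 0.23 between ALDOC and CLU, -0.47 between ALDOC and NDRG2, and -0.60 between NDRG2 and CLU. For GFAP, APOE, ALDOC and CLU the deviations rest mainly on the 3 E80 arrays, which differ most. For NDRG2 the E60 arrays differed more, with an SD of the log2 signals of 0.085, against 0.032 at E80.

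The markers of other cell types show what else moved with E80 array 3. The median deviation from the E60 mean was -0.15, 0.27 and 2.08 (log2) on E80 arrays 1, 2 and 3 for the 7 choroid plexus genes and 0.14, 0.16 and 1.56 for the 8 microglia genes. For 12 genes of the oligodendrocyte lineage it was 0.39, 0.43 and 0.86. For 37 astrocyte genes other than the members it was 0.26, 0.28 and 0.38, although single genes of that list, such as S100A1 and S100B, were much higher on array 3. Of the choroid plexus genes 6 of 7 and of the microglia genes 5 of 8 were highest on E80 array 3. Microglia are known to express APOE, and the choroid plexus to express CLU. Whether these cells contributed to the signals of the members on E80 array 3 was not tested.

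Markers of neurons and of dividing cells differed between the days on all 3 E80 arrays alike. Of 13 neuron genes 5 rose in limma and 9 were higher on every E80 array than on any E60 array, against 1.49% and 12.8% of all genes. Of 11 genes of dividing cells 3 fell and 9 were lower on every E80 array, against 1.05% and 14.7% of all genes. Their median log2 differences were 0.33 and -0.66. The part of these shifts in the signals of the members was not tested.

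**Figure D3:**
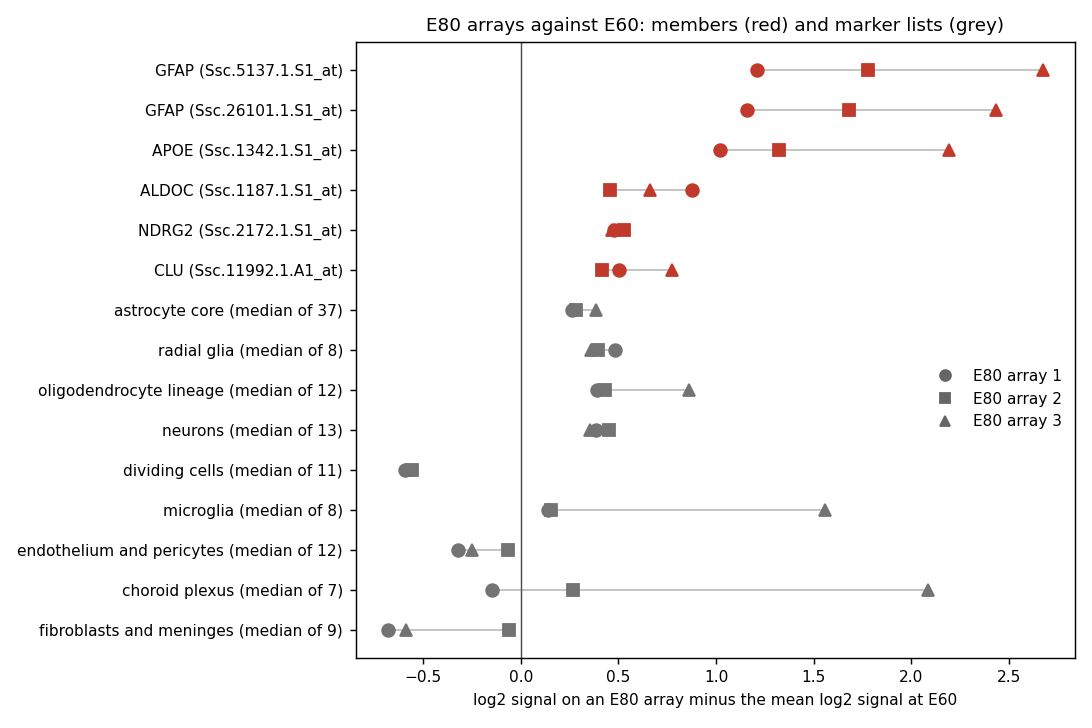
Log2 signal on each E80 array minus the mean log2 signal at E60 (horizontal axis), for the 6 members whose days did not overlap (red) and as the median over each marker list (grey, with the number of genes measured). E80 array 3 (triangles) lies far to the right for choroid plexus, microglia, GFAP and APOE, whereas for NDRG2, neurons and dividing cells the 3 arrays lie close together.

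Some astrocyte genes other than the members were also higher at E80. From lists by role, and with the brightest probe set of each gene, 37 of 72 astrocyte genes could be read, and in limma 3 had risen and 1 had fallen. Over all 6765 genes 1.49% had risen and 1.05% had fallen. Of the 37, 14 were higher on every E80 array than on any E60 array and 1 was lower, while 12.8% and 14.7% of all genes had these orders. The median log2 difference of the 37 was 0.27, against 0.00 over all genes, and 29 were above 0. On E80 array 3, 16 of the 37 were highest, against 18.8% of all genes. That share includes genes that fell. Of all probe sets higher on every E80 array, 32.3% were highest on E80 array 3.

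Among them, MT3 (metallothionein 3, a zinc and copper binding protein of the brain) read 1616, 1723 and 1985 at E80, against 813, 904 and 1001 at E60, a log2 rise of 0.97 (standard error 0.11, adjusted p = 0.016 from limma). PYGM, a glycogen phosphorylase, read 97.3, 96.0 and 135 at E80 and 34.7, 32.3 and 42.5 at E60, a log2 rise of 1.58 (adjusted p = 0.017 from limma, standard error 0.20). The matrix protein TNC (tenascin C) rose by 1.01 (adjusted p = 0.049 from limma), with its lowest E80 signal on array 3. The fall was that of THBS1 (thrombospondin 1, a secreted protein by which astrocytes promote synapses), at -0.70 (adjusted p = 0.039 from limma). The calls of TNC and THBS1 were lost when any one of the 6 arrays was left out, with log2 differences of 0.82 to 1.16 and of -0.73 to -0.66. That of TNC was also lost with 32 added to each signal, and that of THBS1 after median centring and quantile normalization.

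The calcium binding protein S100B had a wide range at E80, as GFAP and APOE did, and so had S100A1. S100A1 read 76.1, 107 and 202 on the E80 arrays, against 36.4, 16.6 and 42.4 on the E60 arrays, a log2 difference of 2.00 that did not pass (adjusted p = 0.062 from limma). S100B read 534, 382 and 939 at E80, against 367, 326 and 363 at E60, a difference of 0.71 that did not pass (adjusted p = 0.230). Both were highest on E80 array 3.

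Genes by which astrocytes are commonly defined were not all higher at E80. The glutamate transporter SLC1A2 had a log2 difference of 0.80 (adjusted p = 0.052 from limma) and read 146, 145 and 170 at E80, against 99.3, 72.0 and 95.3 at E60. Glutamine synthetase (GLUL) had one of 0.32 (adjusted p = 0.263) and the glutamate transporter SLC1A3, also a radial glia gene, one of 0.12 (adjusted p = 0.859). The gap junction protein GJA1 had one of -0.13 (adjusted p = 0.803), and the folate enzyme ALDH1L1 was dim, at 17.8 to 28.8 at E80 and 7.78 to 22.0 at E60. None of these passed, and the days overlapped for all but SLC1A2. The water channel AQP4 was not analysed here.

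Vimentin, the intermediate filament of radial glia and immature astrocytes, went the other way from GFAP. VIM read 1353, 1859 and 1794 on the E80 arrays, against 2075, 2323 and 2050 on the E60 arrays, so that the days did not overlap. Its log2 difference of -0.38 did not pass (adjusted p = 0.179 from limma). Of 7 genes read on the filament list, none rose and LMNB1 (lamin B1 of the nuclear lamina) fell, at -1.23 (adjusted p = 0.016 from limma). The list also holds CRYAB, a small heat shock protein and not a filament. Over all genes 1.49% had risen and 1.05% had fallen, so a count of 0 risen says little here. At an unadjusted p under 0.05 limma had VIM and LMNB1 lower and DES and CRYAB higher. DES, at 1.25 (adjusted p = 0.138 from limma), and CRYAB, at 1.16 (adjusted p = 0.128), were above every E60 array on each E80 array.

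Radial glia markers were mixed, with a median log2 difference of 0.48, against 0.00 over all genes, and 5 differences above 0. Their summed signal, which rests most on the brightest genes, was 5329, 5878 and 5850 on E80 arrays 1, 2 and 3. On E60 arrays 1, 2 and 3 it was 5957, 5839 and 5920. Of 8 read, 3 rose and none fell in limma, against 1.49% and 1.05% of all genes, so 0 fallen says little. At an unadjusted p under 0.05, 4 were higher and 1 was lower. HOPX read 238, 261 and 311 at E80, against 153, 150 and 147 at E60, a rise of 0.84 (adjusted p = 0.023 from limma), and FAM107A rose by 1.00 (adjusted p = 0.044). Both are known from the outer radial glia of the human cortex, and the last is TNC, which is on both lists. HOPX and FAM107A lost their calls when any one array other than E80 array 2 was left out. TNC lost its call when any one of the 6 was left out. With 32 added to each signal FAM107A and TNC were not called. Without E80 array 3 the log2 differences were 0.73 for HOPX, 0.81 for FAM107A and 1.16 for TNC. FABP7, the fatty acid binding protein of radial glia, read 2706, 2646 and 2752 at E80 and 2881, 2526 and 2863 at E60, a difference of -0.03 (adjusted p = 0.903). PROM1 had the largest difference of the list, 1.36, which did not pass (adjusted p = 0.052 from limma). It was above every E60 array on each E80 array.

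**Figure D4:**
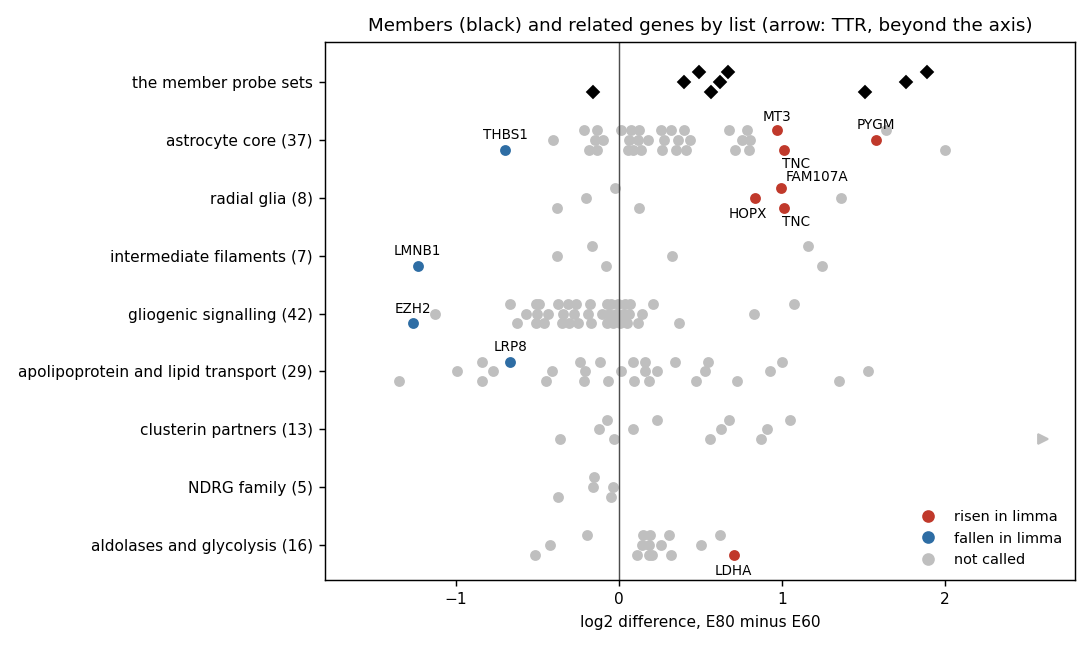
Log2 difference of E80 minus E60 (horizontal axis) for the 9 member probe sets (black) and for the genes of each related list by their brightest probe set (number of genes in parentheses), in red where risen, in blue where fallen in limma and in grey where not called. Vertical position within a row has no meaning, and TTR lies beyond the axis at 5.22.

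Genes of the signals that drive astrocyte formation gave few calls. Of 42 genes read, none had risen and 1 had fallen in limma, where 1.49% and 1.05% of all genes had done so, a background at which a count of 0 or 1 says little about the list. At an unadjusted p under 0.05, 2 were higher and 9 lower, where 4308 of all 23999 probe sets were one or the other. The median log2 difference was -0.18, against 0.00 over all genes. On every E80 array 1 was above and 11 were below all E60 arrays, against 12.8% and 14.7% of all genes. The fall was in EZH2, the Polycomb methyltransferase that represses genes in neural progenitors, which read 109, 89.4 and 136 at E80 and 286, 299 and 214 at E60, a difference of -1.26 (adjusted p = 0.023 from limma, standard error 0.19).

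Single members of each branch were measured. STAT3, which binds the GFAP promoter in mouse, had a log2 difference of 0.21 (adjusted p = 0.418 from limma). The receptor BMPR1B had one of 1.07 (adjusted p = 0.130) and the BMP mediator SMAD4 one of -0.46 (adjusted p = 0.073). In the Notch branch the ligand JAG1 had one of -0.67 (adjusted p = 0.095), and the DNA binding partner RBPJ one of -0.51 (adjusted p = 0.090) on its brightest probe set, while its other 2 probe sets fell by 0.71 and 0.94. The gliogenic factors NFIA, at -0.07 (adjusted p = 0.886), and SOX9, at -1.13 (adjusted p = 0.280) on a dim probe set, overlapped between the days.

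Among the partners of APOE, its receptor LRP8 (ApoER2, also a receptor of Reelin) fell. LRP8 read 536, 459 and 425 on the E80 arrays, against 797, 782 and 671 on the E60 arrays, a log2 difference of -0.67 (adjusted p = 0.036 from limma, standard error 0.12). The call was lost when any one array other than E60 array 3 was left out, and after median centring. Without E80 array 3 the difference was -0.59. The related receptor VLDLR read 333, 333 and 318 at E80 and 315, 327 and 245 at E60, a difference of 0.16 (adjusted p = 0.554). Of 29 genes of lipid transport read, LRP8 alone was called and none had risen, where 1.49% of all genes had risen and 1.05% had fallen. At that background such counts say little about the list. At an unadjusted p under 0.05 limma had 4 higher and 3 lower. LCAT, which esterifies the cholesterol of lipoproteins, had the largest difference, 1.53 (adjusted p = 0.105), on a dim probe set.

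The companions of the other members gave few calls. Of 13 genes that clusterin is known to accompany, such as complement and amyloid proteins, none were called, where 1.49% of all genes had risen and 1.05% had fallen. Limma had 1 higher and none lower of the 13 at an unadjusted p under 0.05. Their median log2 difference was 0.56, and 0.15 without E80 array 3. The median gene, the complement protein C1QC, read 88.7, 77.7 and 227 at E80, against 94.1, 65.9 and 78.7 at E60, and the largest difference, 5.22 for TTR (adjusted p = 0.247 from limma), was 2.27 without E80 array 3. Of 5 known regulators of the NDRG family none were called or had an unadjusted p under 0.05 in limma, and all 5 differences were below 0. At the background given above, the absence of calls among 13 or 5 genes says little. The paralogs NDRG1, NDRG3 and NDRG4 were not analysed here.

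For ALDOC, 16 other glycolytic genes could be read, and 1 rose, against 1.49% of all genes. LDHA, which makes lactate, read 2436, 2487 and 2071 on the E80 arrays, against 1262, 1505 and 1532 on the E60 arrays, a log2 rise of 0.70 (adjusted p = 0.027 from limma, standard error 0.11). Of the 16, 13 differences were above 0, with a median of 0.19, and 7 genes were higher on every E80 array than on any E60 array, against 12.8% of all genes. The neuronal enolase ENO2 had a difference of 0.62 (adjusted p = 0.099), and the glucose transporter SLC2A1 one of -0.51 (adjusted p = 0.093).

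The genes with the most similar signals over the 6 arrays differed between the members. Likeness was Pearson's r of log2 signals over the 6 arrays with the brightest probe set of the member, among 6088 to 6089 brighter probe sets with 1 symbol. With so many candidates and 6 arrays that fall into 2 days, high values are common and are given as a description. For GFAP the closest was APOE (0.995), before the glycogen phosphorylase PYGL (0.992), the secreted ribonuclease RNASE1 (0.988), HOPX (0.984) and LAMTOR2 (0.983). PYGL and RNASE1 were also among the 5 closest to APOE, together with both GFAP probe sets and METTL26.

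RNASE1 shows the shared profile, with 128, 156 and 283 on E80 arrays 1, 2 and 3, against 34.5, 34.3 and 36.6 at E60. For CLU the closest were HMGCS1 (0.994), an enzyme of cholesterol synthesis, GRB2, METTL26, the tetraspanin CD9 and FAM107A. For NDRG2 they were GNG3 (0.998), YWHAH, THY1, DYNLT3 and SUMO3, of which GNG3 and THY1 are known from neurons. GNG3 read 1078, 1144 and 1037 at E80, against 621, 643 and 714 at E60. For ALDOC they were PACSIN1 (0.993), an endocytic adaptor of neurons, MAP2K4, KLHL20, CLCN3 and SCOC. Neither NDRG2 nor ALDOC shared any of its 5 closest genes with another member. With so many candidates, nothing is read from this lack of overlap.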

How the data were processed

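Total RNA of 3 E80 and 3 E60 pig cortices was hybridised to 1-colour arrays. The authors deposited, for each probe set and array, a linear intensity (MAS5 signal), scaled by 1 factor per array. The version of MAS5 was not given in the sources used here. Detection calls appear there as totals per array and not per probe set, so whether a dim signal is above background was not tested. The fold threshold of the study was applied to its gene lists and not used here. Control probe sets of the manufacturer were left out. Symbols came from the platform annotation, and its current gene identifiers changed none of them. No genome was used, so no coordinates or sequences are given.

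Log2 signals, without a pseudocount, were compared as E80 minus E60 in limma 3.58.1 (R 4.3.3; lmFit, then eBayes with trend) on the 6 arrays without covariates. Array numbers follow the accession order and pair nothing. Benjamini-Hochberg adjusted p-values cover 23999 probe sets (threshold 0.05), and p-values measure only the spread between these embryos. Folds come from mean log2 signals. The script was tested on simulated data. The number of arrays limits the precision.

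The members and the gene lists were chosen with earlier results of these data known. Named were all member probe sets, called genes of each list, the 5 most alike genes per member, VIM, PYGM, S100A1 and TTR. Of the up to 4 uncalled genes of each list with the smallest p, only some were named. Among those left out were HDAC2, NPC2 and C3, with log2 differences of -0.43, 0.53 and 0.91. C1QC was named as the median gene of its list. GLUL, SLC1A3, GJA1, ALDH1L1 and S100B are the astrocyte markers of the same plan. BMPR1B, STAT3, NFIA, SOX9, FABP7 and VLDLR were named after their values were seen. Genes of other cell types that were called are not all printed. Alternatives were adding 32 to all signals, keeping the brightest 66% of probe sets, median centring, quantile normalization, limma without the trend or with a robust fit, folds from mean linear signals, counting every probe set, and leaving out each array.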

Additional observations from a re-analysis of the deposited data

How the results depend on the processing

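The 6 bright members had higher mean signals at E80 in every alternative run, with log2 differences of 1.49 to 2.23 and 1.40 to 2.06 for GFAP, 1.17 to 1.76 for APOE, 0.56 to 0.78 for ALDOC, 0.45 to 0.61 for NDRG2 and 0.44 to 0.68 for CLU. Median centring moved the median of all probe sets to 0.06 and gave the 0.61 of NDRG2, more than the spread between its arrays. The dim APOE probe set ranged from 0.32 to 0.96 and the dim GFAP ones from 0.18 to 0.59 and from -0.48 to 0.22.

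Calls depended on the processing. Among the brightest 66% of probe sets 763 were called, 353 risen and 410 fallen, and in limma without the trend 0, with 3706 at an unadjusted p under 0.05. Median centring gave 311 risen and 108 fallen. Leaving out 1 array gave 1 to 367 calls, 0 to 178 risen and 1 to 189 fallen. Of the other astrocyte genes 7 rose among the brightest 66%, 5 after median centring, 5 after quantile normalization and 0 without the trend (9 at an unadjusted p under 0.05). None (0) fell without the trend or after either normalization, 1 of them at an unadjusted p under 0.05 each time, and 2 of their probe sets fell when each was counted. Leaving out 1 array gave 0 to 3 risen and 0 fallen. Of the partner and signalling genes, 0 rose and 0 fell without the trend (8 and 13 at an unadjusted p under 0.05), 5 probe sets fell when each was counted, and 0 to 2 rose and 0 to 4 fell without 1 array. Of the radial glia markers 1 rose with 32 added, 0 without the trend (4 at an unadjusted p under 0.05) and 0 to 2 without 1 array.

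Of 19 called genes of the lists, 16 passed with 32 added, 19 among the brightest 66% and in the robust fit, 15 after median centring and 15 after quantile normalization. Without E80 arrays 1, 2 and 3 they were 0, 12 and 9, and without E60 arrays 1, 2 and 3 they were 0, 0 and 10. None reversed. No paired analysis was possible because the array numbers follow the accession order and the labels tie no E80 embryo to an E60 embryo.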

Other observations

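Within a day, the genes that followed APOE most closely among the brighter probe sets included B2M, the light chain of class I histocompatibility molecules, at an r of 0.994 for deviations from the day means over 6 arrays. B2M read 419, 520 and 1000.5 on E80 arrays 1, 2 and 3, against 497, 456 and 454 on the E60 arrays, so that it exceeded E60 on arrays 2 and 3 and not on array 1. The protease CTSK (r of 0.993) read 71.5, 81.1 and 127 at E80 and 118, 99.3 and 100.3 at E60. TM4SF1 (r of 0.998) read 53.9, 71.3 and 135 at E80, against 95.5, 80.3 and 85.6 at E60. MAD2L1, B2M, CTSK and TM4SF1 had the same order of the E80 embryos as APOE, while on E80 array 1 each lay below every E60 array. HOPX (r of 0.985) had the same order and was above every E60 array on each E80 array.

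The closest to GFAP in the same measure were SUGT1, TM9SF1, CDC45, FGFR1 and CKS1B. FGFR1, a receptor for fibroblast growth factors, read 154, 180 and 238 on the E80 arrays, against 188, 187 and 198 on the E60 arrays, a log2 difference of -0.02 (adjusted p = 0.961 from limma).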
